A study of Drosophila melanogaster with 3 samples.

Results

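The transfer RNA (tRNA) genes of Drosophila melanogaster were examined for binding of CG18764, a protein with a ZAD domain and zinc fingers. The members were all genes of biotype tRNA on the main chromosome arms in the Ensembl annotation, which gave 290 of 18277 genes. Membership was set by biotype, but this class was picked with earlier results of these data known. Binding had been mapped by chromatin immunoprecipitation and sequencing (ChIP-seq) with an antibody against GFP. The embryos were whole, of mixed sex, aged 0 to 16 h, and came from a transgenic line in which GFP was joined to the C terminus of CG18764. The 3 samples were biological replicates of this 1 group, so no treatment or genotype was compared. The comparisons below are between classes of genes or with assembled bases, in each replicate or in all 3 merged, and between replicates. A whole embryo mixes many cell types and stages, so weak binding in all cells and strong binding in a few cannot be told apart.

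Transfer RNAs carry amino acids to the ribosome and are made by RNA polymerase III. Unlike most promoters, theirs lie inside the gene: an A box and a B box in the transcribed sequence are bound by the factor TFIIIC, which brings TFIIIB to the DNA just upstream. In yeast and mammals some tRNA genes can act as chromatin boundaries, and in Drosophila architectural proteins have been mapped to them. Several ZAD zinc-finger proteins of Drosophila, such as Pita, ZIPIC and Zw5, have been described as architectural proteins.

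The genes printed here show letters of the internal promoter and the bases under summits of both kinds that the results turn on, those away from the tRNA gene and those next to it. A summit is the position of highest signal in a peak. Each is written 5′ to 3′ on the strand of the tRNA gene, from the RefSeq sequence of assembly release 6 (dm6), with 1-based coordinates. In the gene bodies capitals mark an A box (TNGCNNAGT) and a B box (GTTCNANNC). The valine gene has no match to these A box letters. In the windows of 121 bp centred on a summit, capitals mark bases of the tRNA gene.
tRNA:Tyr-GTA-1-8 gene (chr3R:8669081-8669174, minus strand): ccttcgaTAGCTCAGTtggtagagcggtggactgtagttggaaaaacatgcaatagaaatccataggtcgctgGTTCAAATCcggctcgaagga
tRNA:Val-CAC-2-5 gene (chr3R:19672277-19672349, minus strand): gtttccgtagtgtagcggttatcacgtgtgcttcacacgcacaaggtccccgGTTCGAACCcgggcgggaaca
tRNA:Tyr-GTA-1-8 summit window (chr3R:8669305-8669425, minus strand): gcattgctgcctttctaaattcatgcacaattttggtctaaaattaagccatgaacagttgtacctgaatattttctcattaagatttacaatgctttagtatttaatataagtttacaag
tRNA:Phe-GAA-1-2 summit window (chrX:6744247-6744367, minus strand): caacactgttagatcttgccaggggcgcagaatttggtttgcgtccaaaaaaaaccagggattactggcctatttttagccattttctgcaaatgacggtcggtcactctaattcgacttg
tRNA:Leu-TAA-2-1 summit window (chr3R:24112671-24112791, plus strand): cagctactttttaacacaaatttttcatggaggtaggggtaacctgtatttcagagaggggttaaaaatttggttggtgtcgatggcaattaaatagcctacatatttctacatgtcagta
tRNA:Ser-AGA-2-4 summit window (chr2L:3173072-3173192, minus strand): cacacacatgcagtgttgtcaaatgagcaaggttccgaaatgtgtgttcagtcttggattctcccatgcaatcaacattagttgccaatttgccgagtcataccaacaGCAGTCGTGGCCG
tRNA:Glu-CTC-2-3 summit window (chr3L:22847787-22847907, minus strand): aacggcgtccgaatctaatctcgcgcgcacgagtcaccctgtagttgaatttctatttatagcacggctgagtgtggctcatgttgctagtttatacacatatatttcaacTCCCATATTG
The gene for tyrosine tRNA carries an intron, which makes it longer than the valine tRNA gene. The summit windows of tRNA:Tyr-GTA-1-8, tRNA:Phe-GAA-1-2 and tRNA:Leu-TAA-2-1 hold no base of the tRNA gene. Those of tRNA:Ser-AGA-2-4 and tRNA:Glu-CTC-2-3 reach into its first bases.

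The tRNA genes stood on 5 arms, with 41 on 2L, 98 on 2R, 48 on 3L, 79 on 3R and 24 on X. They covered 22 kinds by name, counting the initiator methionine and selenocysteine genes separately. They were short, with a median length of 73 bp and a range of 71 to 186 bp. In all, 238 of the 290 had an identical copy elsewhere in the set, and only 95 distinct gene sequences were found. A total of 214 genes were clustered, meaning that another tRNA gene started within 5000 bp, and 76 were isolated. Only 32 started within 500 bp of a transcript start of a protein-coding gene and are called near, and the other 258 are called away. Of the near genes 26 were clustered and 6 were isolated. The 22 mitochondrial tRNA genes were left out, and none of the lists held a peak on the mitochondrial genome.

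The optimal list held 3754 peaks that passed the authors' reproducibility procedure. The pooled relaxed list and the list of each replicate held 30000 peaks each and mix peaks with background by design. The optimal peaks were the 3754 highest of the pooled relaxed list by signal value, so the pooled list includes them. The depth behind the lists is unknown. A gene was counted when a summit lay within 500 bp of its start. Replicate 1 stood apart from the other replicates at these genes, as given below, so shares are printed for each replicate.

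Strong peaks were rare at tRNA genes. In the optimal list 10 of 290 tRNA genes had a summit, or 3.45% (95% Wilson interval 1.88 to 6.23%, counting error only). Among all genes on the main arms the share was 13.4%, and among protein-coding genes it was 16.1%. Of all assembled bases, 2.64% lay within 500 bp of an optimal summit. The tRNA share thus lay near the share of bases and below that of all genes. Within 100 bp the contrast was wider, since no tRNA gene start and 4.49% of all gene starts had an optimal summit that close.

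**Figure D1:**
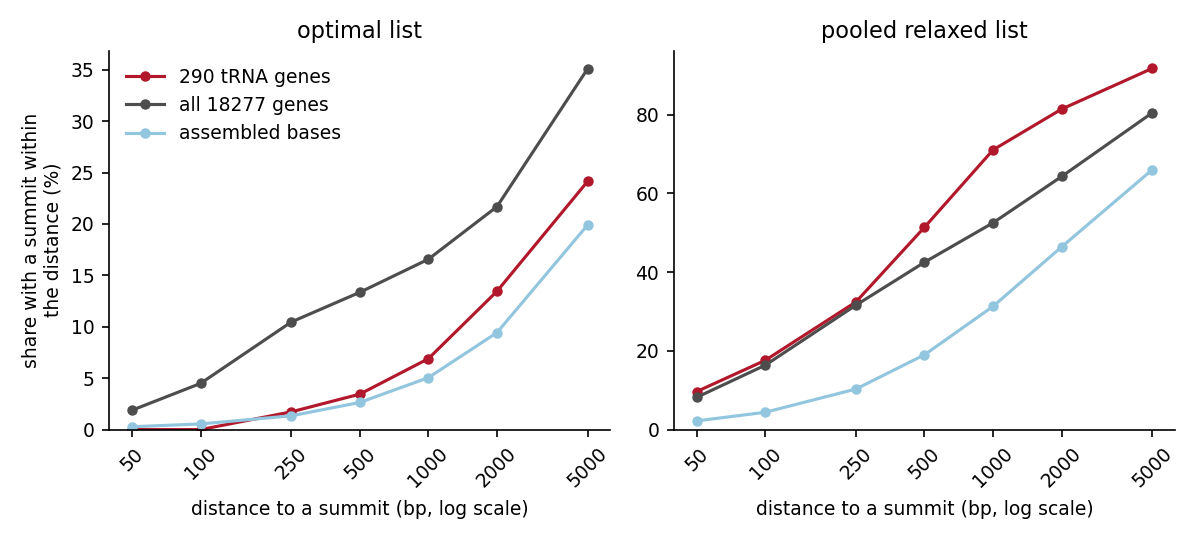
Share of tRNA genes, of all genes and of assembled bases with a summit within a distance from 50 to 5000 bp (log axis), in the optimal list (left) and the pooled relaxed list (right); the vertical scales differ. In the optimal list the tRNA genes stay close to the bases, with 3.45% against 2.64% at 500 bp, and in the pooled relaxed list they lie with or above all genes, with 51.4% against 42.5%.

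The 10 genes shared 9 summits. For 7 of them the summit was closer to a start of another gene than to the tRNA start. The highest belonged to tRNA:Tyr-GTA-1-8, whose summit at chr3R:8669365 lay 191 bp upstream of the tRNA gene and 253 bp from the start of CG8036. It ranked 258 in replicate 1, 204 in replicate 2 and 326 in replicate 3 by signal value, the authors' score for a peak. The mean rank was 263 ± 61.1 (SD, n = 3), so it stood among the strong peaks of every replicate. The gene for tRNA:Phe-GAA-1-2 had its summit at chrX:6744307, 69 bp upstream of RpL17, which encodes a protein of the large ribosomal subunit. Its ranks were 803, 955 and 1376 in replicates 1 to 3, all inside the length of the optimal list. The summit was 236 bp from the tRNA start on the downstream side.

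Histidine and tryptophan tRNA genes followed. The summit of tRNA:His-GTG-1-3 ranked 2254, 1078 and 1401 in replicates 1 to 3 and lay 110 bp upstream of CG8490 and 140 bp upstream of the tRNA gene. The summit of tRNA:Trp-CCA-2-2 lay 13 bp upstream of CG30122 and 274 bp upstream of the tRNA gene. This is a promoter summit that replicate 1 lacked: it ranked 823 in replicate 2 and 1504 in replicate 3, and no summit of replicate 1 lay within 100 bp of it. A single summit, 81 bp upstream of tud, a germ plasm gene whose name was given to the Tudor domain, served both tRNA:Gly-GCC-1-13 and tRNA:Trp-CCA-2-6. It ranked 2790 in replicate 2 and 2496 in replicate 3 and had no match within 100 bp in replicate 1. Just beyond that limit, replicate 1 had a summit of rank 7960. That summit lay 284 bp downstream of the tRNA:Gly-GCC-1-13 start, against 385 bp for the optimal summit.

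The remaining strong summits were further from a protein-coding start. That of tRNA:Leu-TAA-2-1 was 233 bp upstream of the tRNA gene and 342 bp from CG13605, with ranks of 2093, 1436 and 1240 in replicates 1 to 3. That of tRNA:Glu-TTC-1-5 lay 20 bp upstream of snoRNA:185, a small nucleolar RNA gene, and 359 bp from the tRNA start. Its ranks of 3157, 6160 and 2352 straddled the length of the optimal list. That of tRNA:Thr-AGT-1-4, inside CG31279, was 115 bp upstream of the tRNA gene and ranked 8930, 5247 and 2923. That of tRNA:Val-CAC-2-5, inside the nicotinamidase gene Naam, lay 484 bp from the tRNA start, was matched in replicates 2 and 3 at ranks 2432 and 2059, and had no match in replicate 1. All 10 genes had a match within 100 bp in replicates 2 and 3, and 6 also had one in replicate 1. Of the 2440 genes of any kind with an optimal summit, 93.6% were matched in both replicates 2 and 3, and 86.0% in both replicates 1 and 2.

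**Figure D2:**
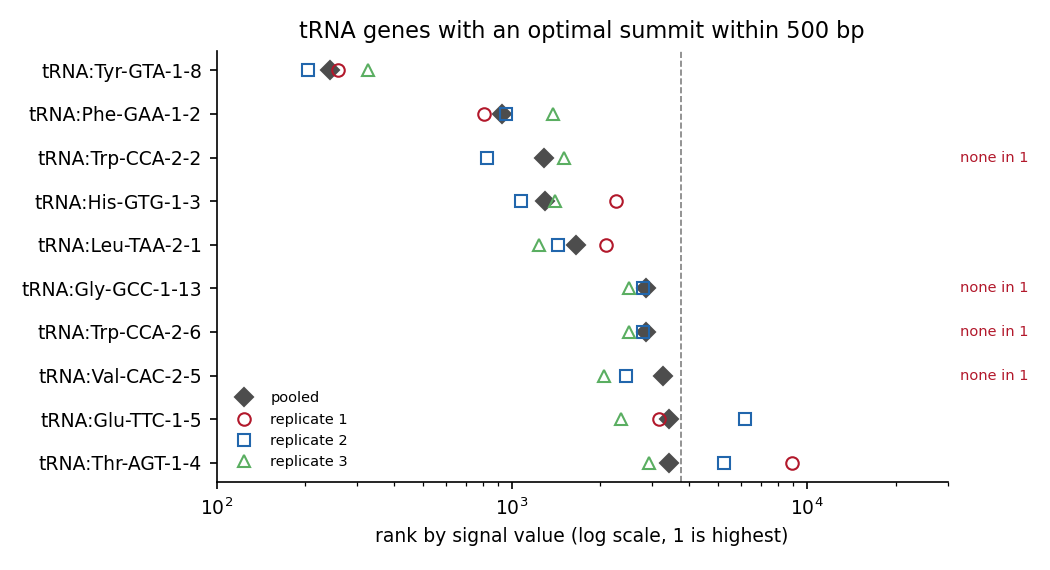
Rank by signal value (log axis, 1 is the highest peak) of the optimal summit at each of 10 tRNA genes, in the pooled list and in each replicate list, with a summit of the replicate within 100 bp. The dashed line marks rank 3754, the length of the optimal list; tRNA:Tyr-GTA-1-8 stays at ranks 204 to 326, and 4 genes have no match in replicate 1.

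Weaker peaks were common at tRNA genes. In the pooled relaxed list 149 of 290 tRNA genes had a summit, or 51.4% (95% Wilson interval 45.6 to 57.1%). The interval treats genes as independent, though joining tRNA gene starts within 500 bp of each other left 202 loci. The share was 42.5% among all genes and 46.8% among protein-coding genes, and 19.0% of assembled bases lay that close to a summit. Within 500 bp of the starts of the 149 genes lay 138 pooled relaxed summits, counting every summit in a window. The 28 isolated genes among them had 36 such summits, and the 121 clustered genes had 102. Some genes thus had several summits and others shared them. In the cysteine and lysine cluster on 3L, 4 genes shared a summit. The best summits of the 149 genes had a median rank of 13259 of 30000, against 6910 for all genes with a pooled relaxed summit. Small nucleolar RNA genes, another class of short noncoding genes, had such a summit in 24.5% of 269 cases, and small nuclear RNA genes in 50% of 32.

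In the pooled relaxed list the nearest summits were most frequent at the start of the tRNA gene, which was not so in every replicate. Among the 149 genes, 51 had one within 100 bp of the gene start, which is 17.6% of all tRNA genes against 16.4% of all gene starts and 4.40% of bases. The nearest summit fell inside the gene body at 23 genes, all of them away from a protein-coding start. Counts per 100 bp were highest on either side of the start, with 24 genes in the 100 bp before it and 27 in the 100 bp after it. They were 10 and 7 in the outermost bins. Only the nearest summit of each gene was binned, which favours positions close to the start, and a shared summit counted for each gene. In replicate 3 the same pair of bins was highest, with 24 and 26 genes. Replicate 2 had its highest count, 40, from 200 to 100 bp upstream, with 21 and 27 on either side of the start. Replicate 1 had 3 to 6 genes in every bin, and its share within 100 bp, 3.79%, was below the 4.40% of bases. For 135 of the 149, the best summit was closer to the tRNA start than to a start of any other kind of gene. The choice of window sets part of this count. It was centred on the tRNA start, and 127 of the 149 genes had no protein-coding start within 500 bp.

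**Figure D3:**
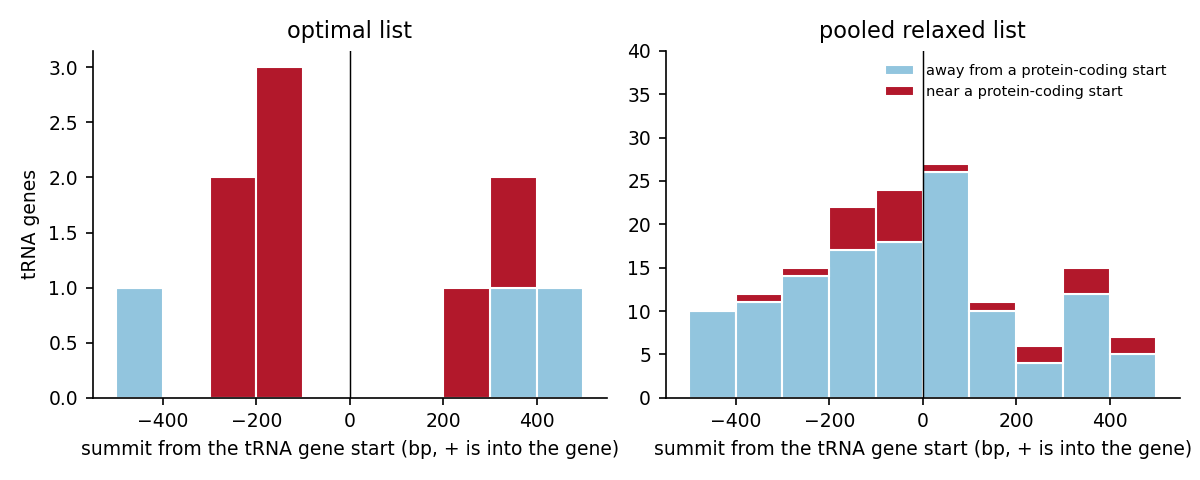
Number of tRNA genes by the position of the nearest summit within 500 bp of the gene start, in bins of 100 bp, on the strand of the tRNA gene (positive is downstream); bars are stacked by class. None of the 10 genes with an optimal summit has it in the 100 bp on either side of the start, and the 149 genes with a pooled relaxed summit are most frequent there.

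Of the next 10 genes after the optimal list, tRNA:Ser-AGA-2-4 and tRNA:Glu-CTC-2-3 had their summits nearest the gene start, at 48 and 51 bp upstream. The summit of tRNA:Ser-AGA-2-4 ranked 3898 in the pooled list. It ranked 22452, 4495 and 3226 in replicates 1 to 3, so replicate 1 placed it far lower than the others. The summit of tRNA:Glu-CTC-2-3 lay 5665 bp from CG32462, whose start was the protein-coding start nearest to the tRNA gene. Its ranks were 6364, 6554 and 3729, so replicate 3 placed it highest. A single summit of pooled rank 3899 lay between the arginine genes tRNA:Arg-CCT-1-2 and tRNA:Arg-CCT-1-3, 4449 bp from the nearest start of another gene. It ranked 2987 in replicate 2 and 3710 in replicate 3 and had no match in replicate 1. Another, of pooled rank 5097, served the glutamate genes tRNA:Glu-CTC-1-1, tRNA:Glu-TTC-1-1 and tRNA:Glu-TTC-1-2 inside mrj and was matched in all 3 replicates, at ranks 5116, 11547 and 8438. That of tRNA:Gly-TCC-1-1 lay 65 bp from the start of CG31248. The other genes named by the same rule were tRNA:Thr-AGT-1-2, of pooled rank 4860, and tRNA:Gln-TTG-2-1 on X, of pooled rank 5383.

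The replicates differed widely at these weaker sites. With the whole list of 30000 peaks, 17.2% of tRNA genes had a summit in replicate 1, 62.1% in replicate 2 and 52.8% in replicate 3, a mean of 44.0% ± 23.7 (SD, n = 3). The shares of all genes were 33.0%, 44.0% and 45.7%, and those of assembled bases 20.2%, 18.5% and 18.8%. In replicate 1 the tRNA share was below the share of bases, and in the other replicates it was above both the bases and all genes. A summit in replicates 2 and 3 but not in replicate 1 was found at 89 tRNA genes (30.7%) against 13.6% of all genes. In replicate 1 alone it was found at 10 (3.45%), against 6.69% of all genes. All 3 replicates had one at 31 tRNA genes (10.7%), against 21.3% of all genes. None had one at 67 tRNA genes (23.1%), against 38.6% of all genes. Counting only pooled relaxed summits matched within 100 bp in both replicates 2 and 3 left 64 of the 149 tRNA genes (43%). The share was 60.5% of all genes with a pooled relaxed summit. With matches in replicates 1 and 2, 23 tRNA genes (15.4%) remained, against 44.3% of all such genes. With matches in replicates 1 and 3, 19 (12.8%) remained, against 43.6%. The reason for the difference of replicate 1 was not tested.

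Among the highest 3754 peaks of each replicate the tRNA genes with a summit numbered 5, 12 and 17 in replicates 1 to 3, or 1.72%, 4.14% and 5.86%. The shares of all genes were 12.7%, 13.2% and 13.5%. The tRNA share was below that of all genes in each replicate. It was below the 2.64% of bases in replicate 1 and above the 2.63% of bases in replicates 2 and 3.

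Genes near a protein-coding start had strong peaks in a larger share of cases than genes away from one. In the optimal list 7 of 32 near genes had a summit (21.9%) and 3 of 258 away genes (1.16%). Bases near a protein-coding start were within 500 bp of an optimal summit in 11.3% of cases, and bases away from one in 1.54%. Among the highest 3754 peaks of each replicate, near genes had a summit in 12.5%, 18.8% and 25% of cases in replicates 1 to 3. Away genes had one in 0.388%, 2.33% and 3.49%. In numbers of genes this was 4, 6 and 8 near genes and 1, 6 and 9 away genes. The difference was above 0 in all 3 replicates, at 16.7 ± 4.71 percentage points (SD, n = 3, exact two-sided sign-flip permutation test p = 0.25). With 3 replicates 0.25 is the smallest p this test can give. Without replicate 1 the difference was 19.0.

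At the weaker sites the share was also higher at near than at away genes in each replicate. In the pooled relaxed list 22 of 32 near genes (68.8%) and 127 of 258 away genes (49.2%) had a summit. The corresponding shares of bases were 40.3% and 16.3%. By replicate, near genes had a relaxed summit in 40.6%, 68.8% and 68.8% of cases and away genes in 14.3%, 61.2% and 50.8%. The difference was 17.3 ± 9.41 percentage points (SD, n = 3, exact two-sided sign-flip permutation test p = 0.25), with the smallest value, 7.51, in replicate 2. Without replicate 1 it was 12.7. Away genes alone showed the same split between replicates, being under the 18.8% of away bases in replicate 1 and above the 15.6% in replicates 2 and 3. Among clustered genes, which make up 26 of the 32 near genes, the gap was smaller, at 61.5% of near and 55.9% of away genes in the pooled list. By replicate, clustered near genes had 30.8%, 65.4% and 65.4% and clustered away genes 12.2%, 68.1% and 56.9%, so that replicate 2 went the other way. The difference also depended on the window: within 50 bp the shares were 3.12%, 6.25% and 6.25% of near genes and 1.94%, 7.36% and 8.53% of away genes, lower for near genes in replicates 2 and 3. The 6 isolated near genes all had a pooled relaxed summit, and 3 of them an optimal one.

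The difference between clustered and isolated tRNA genes changed direction between replicates. In the optimal list 6 of 214 clustered genes (2.80%) and 4 of 76 isolated genes (5.26%) had a summit. In the pooled relaxed list it was 121 clustered (56.5%) and 28 isolated genes (36.8%). By replicate, clustered genes had a relaxed summit in 14.5%, 67.8% and 57.9% of cases, and isolated genes in 25%, 46.1% and 38.2%. Clustered genes were thus lower by 10.5 percentage points in replicate 1 and higher by 21.7 and 19.8 in replicates 2 and 3. The mean difference was 10.3 ± 18.1 percentage points (SD, n = 3, exact two-sided sign-flip permutation test p = 0.5). Without replicate 1 it was 20.7. Among the highest 3754 peaks the mean difference was −0.053 ± 1.06 percentage points (SD, n = 3, exact two-sided sign-flip permutation test p = 1).

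**Figure D4:**
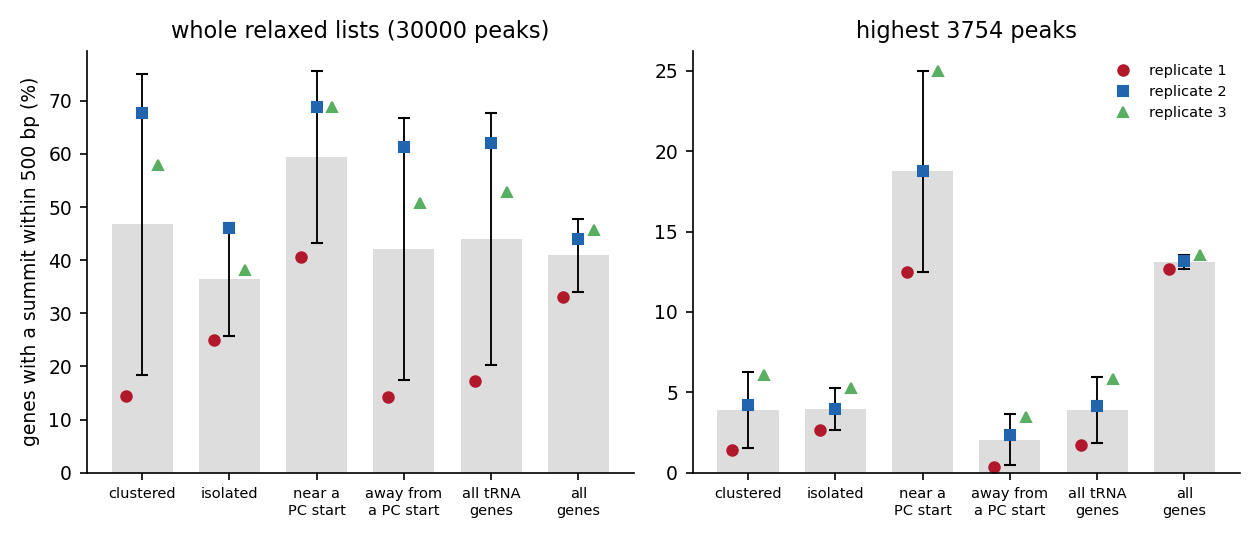
Share of genes with a summit within 500 bp in each replicate (points), with the mean (bar) and SD (error bar, n = 3), for whole relaxed lists (left) and the highest 3754 peaks (right); PC stands for protein-coding, and the vertical scales differ. In the right panel genes near a protein-coding start, at 12.5 to 25%, lie above the away genes, at 0.388 to 3.49%, and in the left panel replicate 1 is lowest for each class shown.

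Genes inside and outside protein-coding genes had the same mean share at the weaker sites. A relaxed summit was found at 44.0% ± 25.5 of the 134 genes inside one and at 44.0% ± 22.2 of the 156 outside (SD, n = 3), a difference of 0.0128 ± 4.60 percentage points (exact two-sided sign-flip permutation test p = 1). Among the highest peaks genes inside were lower in all 3 replicates, by a mean of −4.49 ± 2.49 percentage points (SD, n = 3, exact two-sided sign-flip permutation test p = 0.25).

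The share with a relaxed summit did not follow cluster size in 1 way. Pooled relaxed summits were at 36.8% of lone genes, 54.0% of genes in clusters of 2, 64.3% in clusters of 3 and 55.2% in clusters of 4 or more. In replicate 1 the share fell along these sizes, from 25% to 19.7%, 16.7% and 9.38%. In replicate 2 it was 46.1%, 63.2%, 76.2% and 67.7%, and in replicate 3 38.2%, 54.0%, 64.3% and 58.3%, highest for clusters of 3 in both. Both largest clusters held 11 genes. The one on 2R at chr2R:6161535-6171759, with lysine, arginine, asparagine and isoleucine tRNA genes, had a summit at 9 genes in the pooled list, and at 0, 9 and 10 genes in replicates 1 to 3. The one on 3R at chr3R:17617761-17631750, with alanine, proline, threonine and valine tRNA genes, had 4 in the pooled list, and 0, 5 and 5 by replicate. Neither had a summit in replicate 1.

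The next 3 clusters held 7 genes each. The isoleucine and leucine cluster at chr2R:13430282-13432794 had a pooled summit at 6 genes, and 0, 7 and 4 by replicate. The cluster of glutamate and initiator methionine genes at chr2R:19725620-19728958 had 6 pooled and 1 optimal, and 1, 6 and 7 by replicate. The arginine and serine cluster at chrX:14014814-14017284 had none in the pooled list, and 0, 2 and 0 by replicate. Its windows were also the least unique of the 5, as 67.5% of their 32-base words occurred once in the assembly, against 88.9 to 91.5% in the others.

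The tRNA genes on X went the other way between replicates. A relaxed summit was found at 10, 7 and 5 of the 24 genes on X in replicates 1 to 3, or 41.7%, 29.2% and 20.8%. The 266 autosomal tRNA genes had shares of 15.0%, 65.0% and 55.6%. Among all genes, those on X had 31.0%, 43.5% and 45.1% and those on autosomes 33.7%, 44.4% and 46.1%. No tRNA gene on X had a summit in replicates 2 and 3 without replicate 1, whereas 89 autosomal ones did. Summits in replicate 1 alone were found at 6 tRNA genes on X and 4 on autosomes. The whole relaxed lists placed 14.4%, 17.0% and 16.2% of their peaks on X. This difference was seen on 24 genes, 7 of which belong to 1 cluster, and it was not tested.

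**Figure D5:**
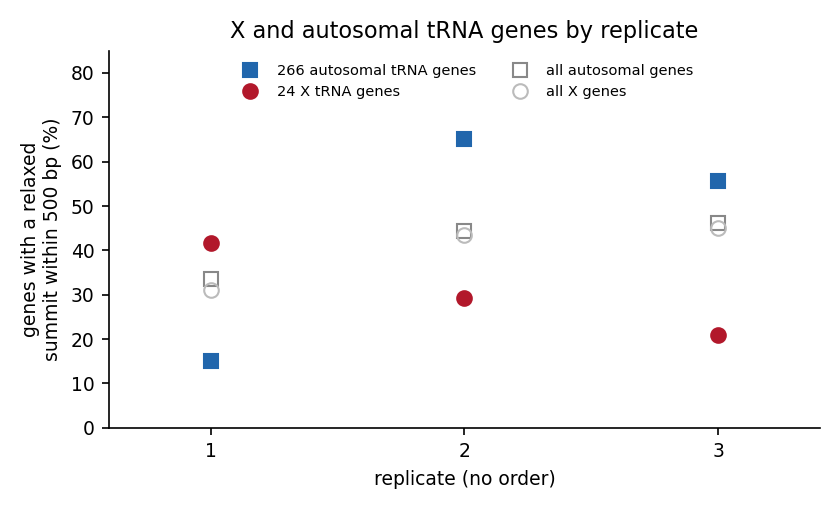
Share of genes with a relaxed summit within 500 bp in each replicate, for tRNA genes on X and on autosomes (filled) and for all genes on X and on autosomes (open). In replicate 1 the X tRNA genes are above the autosomal ones, 41.7% against 15.0%, and in replicates 2 and 3 they are below.

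By amino acid, beside the 51.4% of all tRNA genes, pooled relaxed summits were found at 13 of 19 lysine, 12 of 17 alanine, 12 of 19 glutamate, 8 of 11 isoleucine and 4 of 6 initiator methionine genes. They were fewest at 3 of 12 glutamine genes, 2 of 7 cysteine genes and 0 of 6 elongator methionine genes, but the replicates did not share this order. Glutamine genes had a summit in 66.7% and 58.3% of cases in replicates 2 and 3, cysteine genes in 57.1% in replicate 3 and elongator methionine genes in 50% in replicate 2. No lysine gene had a summit in replicate 1, and 9 and 12 of the 19 had one in replicates 2 and 3. The number of genes per amino acid, 1 to 26, limits how far these shares can be compared, and identical copies share sequence.

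Most tRNA gene bodies consist of repeated sequence. In 238 gene bodies no 32-base word was unique in the assembly. The windows of 500 bp on either side of the starts were more open, with a median of 92.3% unique words, against 100% for all genes. Clustered genes had a median of 90.8% and isolated ones 95.3%. In windows of 80 to 90% unique words, 62.5% of 64 genes had a pooled relaxed summit, and in windows of 90 to 100%, 50% of 210 did. All 10 genes with an optimal summit were in the latter group. Only 4 of the 14 genes under 60% had a pooled relaxed summit. How reads from repeated sequence were placed is not given in the sources used here, and its part in the results was not tested.

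The B box letters GTTCGANNC were found in 160 of 290 tRNA genes on the sense strand (55.2%). The share was 55.7% of genes with a pooled relaxed summit and 54.6% of those without. A wider form, GTTCNANNC, which includes the first, was in 271 genes (93.4%), with 91.9% and 95% in the same groups. The A box letters TGGCNNAGT were in 34 genes (11.7%) and the wider TNGCNNAGT in 102 (35.2%). The DNA replication-related element TATCGATA, a core promoter motif of housekeeping genes in flies, was within 250 bp of 6 tRNA gene starts on either strand (2.07%) and of 7.95% of all gene starts. Its core CGATA, which the longer form contains, was there at 42.8% of tRNA genes and 56.8% of all genes. GC content in the 101 bp around pooled relaxed summits at tRNA genes was 40.2% ± 9.89 (SD, n = 138 peaks), against 37.5% over all peaks of that list and 58.1% ± 4.34 in the tRNA gene bodies themselves.

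Strong peaks were also found at genes for the machinery that makes and matures tRNA. The shares below stand beside the 13.4% of all genes and 16.1% of protein-coding genes with an optimal summit. These gene lists were chosen with earlier results of these data known, so their shares are descriptive. Of 5 genes for RNA polymerase III factors, Bdp1 and Brf had an optimal summit. Both encode subunits of TFIIIB, the factor that places the polymerase. The summit of Bdp1 ranked 83, 232 and 196 in replicates 1 to 3, and that of Brf 147, 249 and 210. Of the 17 polymerase subunit genes matched, 3 had an optimal summit (17.6%), close to the share of protein-coding genes. Of these, Polr2F and Polr2H encode subunits that all nuclear polymerases share, and Polr3E encodes a subunit of RNA polymerase III. Their pooled ranks were 744, 449 and 612.

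Of the 20 tRNA processing genes matched, 9 had an optimal summit (45%). Pus1 encodes a pseudouridine synthase and Dus2 a dihydrouridine synthase, and they ranked 104 and 109 in the pooled list. Trmt6 and Trmt61, which encode both subunits of a tRNA methyltransferase, ranked 355 and 1085. RNaseZ, whose product cuts the 3′ ends of tRNA precursors, ranked 1772. Ddx1 and Archease, whose products work with the ligase that joins spliced tRNA pieces, ranked 2905 and 3223, and Rtca, which encodes an RNA cyclase, ranked 2880. In replicates 1 to 3 Archease ranked 9429, 4008 and 3291 and Rtca 3869, 3321 and 2362. Some of these ranks lay beyond 3754, the length of the optimal list. The other processing genes named here ranked inside that length in each replicate.

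Among 110 other templates of RNA polymerase III, 100 were 5S rRNA genes and pseudogenes in 1 array of near-identical copies. None of these had a summit in any of the 5 lists. Of the other 10, snRNA:U6:96Ab and snRNA:U6:96Ac, which encode a spliceosomal RNA, shared an optimal summit. It ranked 3900, 2141 and 2026 in replicates 1 to 3. Pooled relaxed summits were at 6 of these 10, and neither 7SL gene nor RNaseP:RNA had one. Both 7SL genes lay inside the lysine tRNA cluster at chr3R:6819894-6823035. The windows around the tRNA starts of that cluster had a mean of 42.1% unique words. The part of repeated sequence in the absence of summits at the 5S and 7SL genes was not tested.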

How the data were processed

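ChIP-seq peak lists of 3 biological replicates of CG18764-GFP embryos were used, with chromatin sonicated to 200 to 800 bp per the labels. The authors deposited a relaxed list per replicate, a pooled relaxed list and an optimal list on dm6, called against a control that the replicates shared, per the file listing. The aligner and peak caller were not given in the sources used here, nor were the thresholds, and depth is unknown. The authors' signal value is a score without a stated scale and served only to rank peaks inside each list. The −log10 q value that the authors deposited was not used. The deposited summit offset gave each summit, and it was the middle of the peak in 96.1% of pooled relaxed peaks. The lists on dm3 were not used.

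The members and gene lists were chosen with earlier results of these data known. Gene models were from Ensembl release 115 and sequence from RefSeq assembly release 6. Genes were counted with a summit within 500 bp of the gene start, and the share of bases was taken over 137057575 assembled bases on the main arms. Clusters joined tRNA genes at 5000 bp. Summits within 100 bp were called matched. The highest peaks were the 3754 of each replicate with the largest signal values. Classes were compared within each replicate by an exact two-sided sign-flip permutation test over 3 replicates. Named tRNA genes were those with an optimal summit and the next 10 by pooled rank; the 5 largest clusters and listed genes with an optimal summit were named too, except 1 that is not reported here. The wider A and B box letters were chosen after seeing the data. Uniqueness was the share of 32-base words found once in the assembly on both strands. Intervals cover counting error only and treat genes as independent, although neighbouring tRNA genes can share a summit. Counting functions were tested on simulated data. Python 3.11.15 was used with numpy, scipy and matplotlib.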

Additional observations from a re-analysis of the deposited data

How the results depend on the processing

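The number of tRNA genes with an optimal summit, 10, depended on the window. It was 0 within 100 bp, 5 within 250 bp and 20 within 1000 bp. It was 2 when the peak interval had to overlap the gene body and 5 among peaks above the list's median signal. The number with a pooled relaxed summit, 149, was 51 within 100 bp and 94 within 250 bp, 87 for overlap with the gene body and 94 above the median signal, and within 1.5 times at 1000 bp. When 1 replicate was left out and a match in both others was asked for, the counts ranged from 6 to 10 and from 19 to 64; the highest of each came without replicate 1. In the mean over replicates near genes exceeded away genes with windows of 250 and 1000 bp and under the other class definitions run, in whole lists by 6.73 to 51 percentage points and in the highest peaks by 7.97 to 37.9. At 1000 bp replicate 3 went the other way, with 68.8% of near and 70.9% of away genes. The excess of clustered over isolated genes in whole lists stayed above 0 in the mean, from 4.64 to 20.7. In the highest peaks it was near 0 and changed sign: 1.77 at 1000 bp, 0.763 with clusters at 1000 bp, 1.53 for away genes alone, 1.08 with each locus counted once and 0.535 without replicate 1, against −0.486 to 0.535 over the replicates left out. The cause of these changes was not tested, beyond a smaller window or list holding fewer summits by construction. No paired analysis was possible because the samples form 1 group, so that replicate numbers pair no samples; the class differences were taken within each replicate. Unknown depth limits the weaker sites, where a missing summit in a list cut at 30000 peaks does not show that binding was absent.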
